A study of Homo sapiens with 13 samples.

Results

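The Hippo pathway limits growth through a kinase cascade in which the kinases encoded by STK3 and STK4 activate LATS1 and LATS2, and the LATS kinases phosphorylate the transcriptional coactivators YAP1 and TAZ (gene WWTR1) so that they stay in the cytoplasm or are degraded. When they are not phosphorylated, YAP1 and TAZ enter the nucleus and bind DNA through TEAD factors, of which TEAD1 is one. Among the genes they are known to switch on are CYR61 and CTGF, which encode secreted matricellular proteins. AMOTL2 and LATS2 are others, and these feed back to restrain YAP1 and TAZ. The 7 genes described here are the effectors YAP1 and WWTR1, their DNA-binding partner TEAD1, and the targets CYR61, CTGF, AMOTL2 and LATS2. They were found by symbol, and the set was chosen on the levels of these same 13 libraries in an earlier look at the data, so all values below are descriptions. Rows for 6 of the 7 were used, out of 22613 entries per library, and CTGF was not analysed here. The values are RNA levels and say nothing of phosphorylation or of where YAP1 and TAZ protein lay.

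The libraries came from LNCaP-abl, a prostate cancer cell line derived from LNCaP cells that grows without androgen, kept in medium with charcoal-stripped serum and harvested 72 h after transfection of an siRNA pool. One library received a control siRNA, siControl2 in the labels and siControl here. The other 12 received siBRCA1, siBRCA2, siCTCF, siEED, siEZH2, siFOXA1, siFOXM1, siKDM1A, siMALAT1, siPCAT1, siRAD21 or siSMARCA4. Each group had 1 library, so no difference between groups was tested, there is no replicate error, and neighbours in any order of levels cannot be told apart from noise.

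Levels are in FPKM, the number of fragments divided by transcript length and by library size, and read depth is unknown. Sorted values were nearly the same in all libraries, so the levels had also been brought to a common distribution before deposit. Differences are a knockdown minus the control on the log2(FPKM + 1) scale, which understates changes of genes with low FPKM, and a difference of at least 1 is called 2-fold. Of 11 siRNA targets analysed, 10 were below the control in their own library and 8 were lower there than in any other library. BRCA2 was at 1.23 FPKM in siBRCA2 and 3.25 in the control, but only the 9th lowest of 13 libraries there, and BRCA1 was the 3rd lowest in siBRCA1. MALAT1 RNA was higher in its own knockdown library (21.7 FPKM) than in the control (16.4 FPKM). This goes against the label, so the sample is called the library labelled siMALAT1. The siPCAT1 label has no such check, as its target was not analysed here, and a knockdown means a library by its label. Of 8 prostate luminal markers, all were listed, with a summed level of 630.0 to 951 FPKM, although KLK2 and KLK3 were too low for the filter described next. KRT14, the 1 basal marker analysed, reached at most 0.830 FPKM and was at 0 in 4 libraries. The 2 fibroblast markers analysed summed to between 1.15 and 3.77 FPKM, the endothelial marker PECAM1 lay between 0.637 and 1.01 FPKM, and the leukocyte marker PTPRC reached 3.14 FPKM in siRAD21, against 0.946 FPKM in the control, and the part of other cell types in the results was not tested. In bulk RNA, fewer cells with a transcript and less of it per cell cannot be told apart.

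TEAD factors bind a short core, GGAATG on one strand or CATTCC on the other. RefSeq promoter windows on GRCh38.p14, from 250 bases before to 50 bases after a transcription start, were at hand for 5 of the 7 genes and were searched for this core on both strands. Of all 35116 windows of 300 bases, 14.0% held it. YAP1, LATS2 and 1 of the 2 AMOTL2 windows held 1 copy each, both WWTR1 windows held 0, and the CTGF window held 3. CYR61 and TEAD1 had no window. The copies of the 3 measured genes follow in 30 bases of the gene's strand, 5′ to 3′, with the core in capitals. They show where the known partner of YAP1 and TAZ could read these promoters, and a match of letters is not evidence of binding.
YAP1, chr11:102110273-102110302, plus strand, core from position -162: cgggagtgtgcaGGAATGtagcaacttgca
AMOTL2, chr3:134374499-134374528, minus strand, core from position -69: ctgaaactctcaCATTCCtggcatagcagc
LATS2, chr13:21061560-21061589, minus strand, core from position 9: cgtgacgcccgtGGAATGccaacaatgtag
Positions are counted from the start site, negative before it.

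CYR61, the secreted matricellular protein most often read as a sign of YAP and TAZ activity, was the member that varied most. It was at 3.32 FPKM in the control, the lowest of the 13 libraries. It was at 3.82 FPKM in siPCAT1, 4.21 in the library labelled siMALAT1, 5.78 in siKDM1A, 5.82 in siBRCA2 and 6.01 in siBRCA1. The next 5 libraries lay close together, with siSMARCA4 at 10.43, siEZH2 at 10.55, siRAD21 at 10.64, siCTCF at 10.85 and siFOXA1 at 11.03 FPKM. The highest levels were 15.6 FPKM in siFOXM1 and 23.0 in siEED. All 12 libraries with a targeting siRNA were therefore above the control, by 1.15 times in siPCAT1 to 6.93 times in siEED. The widest step in the order, 0.71 on the log2 scale, lay between siBRCA1 and siSMARCA4 and set 7 libraries above the other 6.

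**Figure D1:**
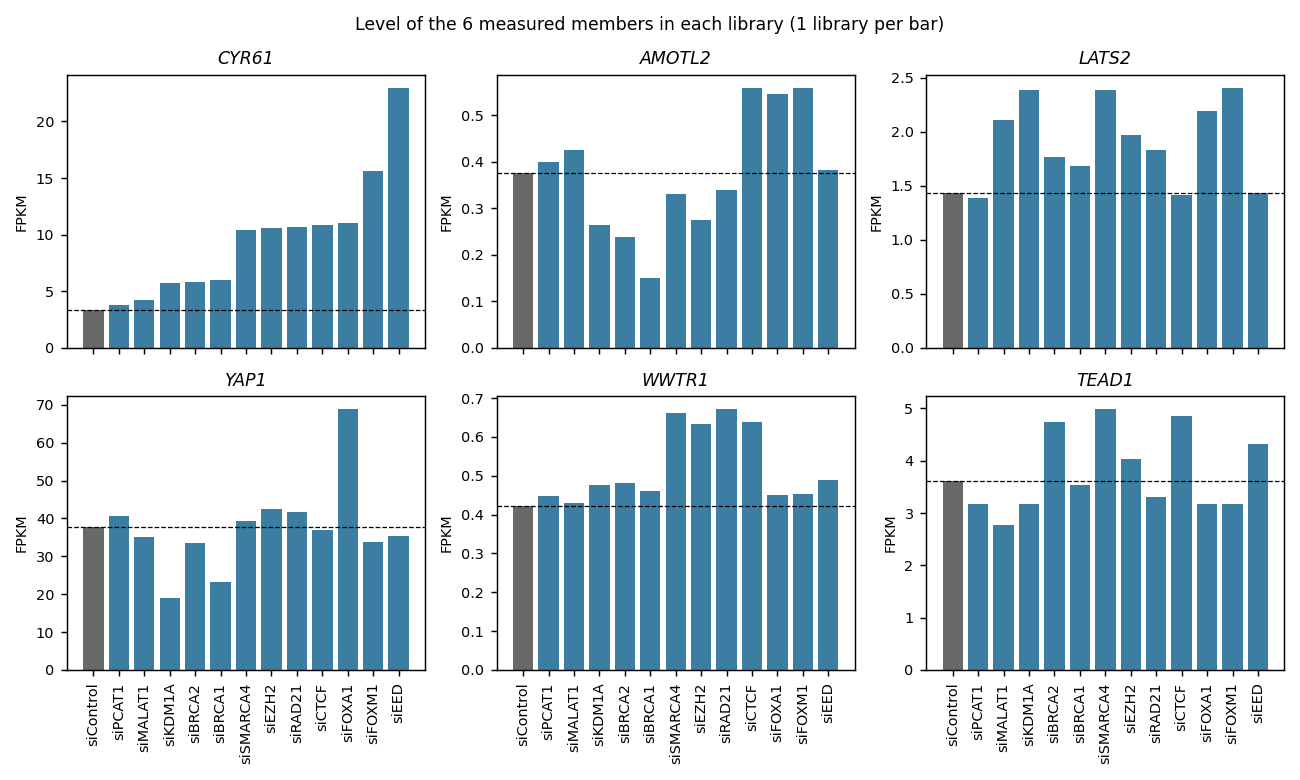
Bars give the FPKM of each of the 6 measured members in each library, 1 library per bar, with the control in grey and its level as a dashed line; libraries are in the order of their CYR61 level. CYR61 was lowest in the control and reached 23.0 FPKM in siEED, whereas the same order of libraries gave no steady order for the other 5 genes.

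Against the control, CYR61 was 2-fold higher in 7 knockdowns. The differences were 1.40 in siSMARCA4, 1.42 in siEZH2, 1.43 in siRAD21, 1.46 in siCTCF, 1.48 in siFOXA1, 1.94 in siFOXM1 and 2.47 in siEED. In the other 5 they ran from 0.16 in siPCAT1 to 0.70 in siBRCA1. EED and EZH2 encode subunits of the Polycomb repressive complex PRC2, and the CYR61 difference was larger in siEED than in siEZH2. The targets themselves were not lowered alike. EED was at 4.13 FPKM in siEED and 8.935 in the control (-0.95), short of 2-fold on this scale. EZH2 was at 2.20 FPKM in siEZH2 and 16.4 in the control (-2.44). CTCF, an insulator protein, and RAD21, a cohesin subunit, act together in chromatin looping. CYR61 was at 10.85 FPKM in siCTCF and 10.64 in siRAD21. That level was not particular to this pair, with siSMARCA4 at 10.43, siEZH2 at 10.55 and siFOXA1 at 11.03 FPKM. The CYR61 differences share 1 control library, and that library was the lowest of all. Against the median of the other 11 knockdowns, CYR61 was 2-fold higher only in siEED (1.07), it was 2-fold lower in siPCAT1 (-1.26) and the library labelled siMALAT1 (-1.15), and the difference was 0.54 in siFOXM1 and between -0.015 and 0.073 in the other 5 of the 7.

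The set is read here beside the share of all 15786 genes tested that lay 2-fold from the control. CYR61 was the only member past that size in either direction, and 5 members passed the filter of a mean of at least 0.5 FPKM. It was 1 of 5 in siCTCF, where 1.27% of genes were higher and 2.84% lower. It was 1 of 5 in siEED (0.817% higher, 0.741% lower) and in siEZH2 (0.893% and 3.09%). The same count held in siFOXA1 (3.52% and 4.22%), siFOXM1 (2.59% and 3.60%), siRAD21 (0.906% and 1.88%) and siSMARCA4 (0.494% and 1.97%). No member was past it in siBRCA1 (0.450% and 0.944%), siBRCA2 (0.767% and 0.760%) or siKDM1A (0.754% and 1.55%). None was in the library labelled siMALAT1 (0.386% and 1.56%) or in siPCAT1 (0.323% and 1.33%). Nothing is read from these shares about the set, since its members were chosen with such differences known. Among all genes tested, the CYR61 difference was the 5th largest increase in siEED, the 24th in siSMARCA4, the 35th in siEZH2 and the 46th in siRAD21. It was the 63rd in siCTCF, the 91st in siFOXM1 and the 200th in siFOXA1.

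**Figure D2:**
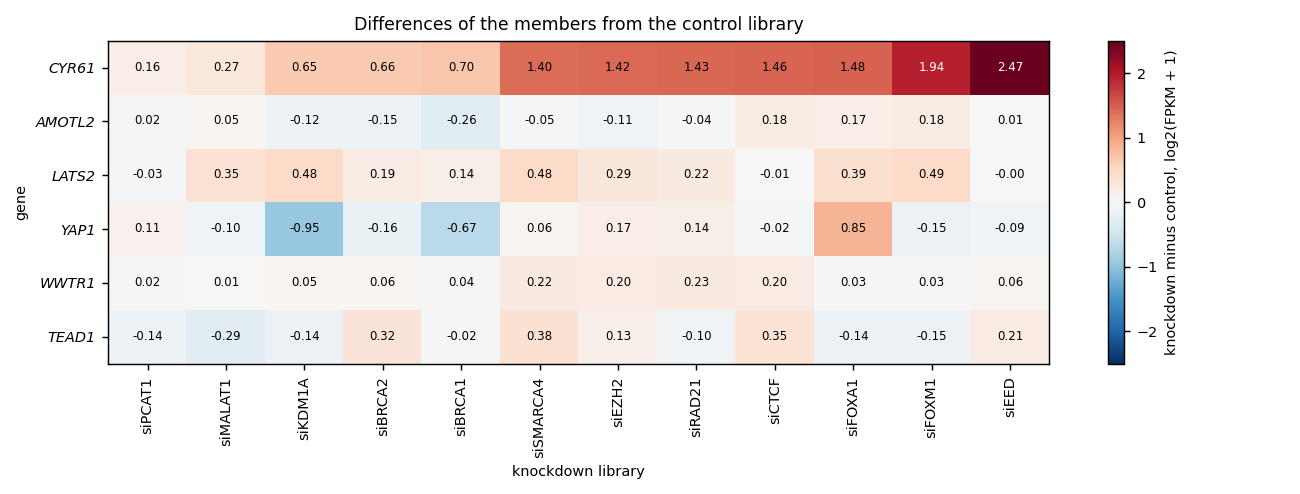
Each cell gives a knockdown minus the control on the log2(FPKM + 1) scale for a member (rows) in a library (columns, in the order of their CYR61 level), with red above and blue below the control. The CYR61 row runs from 0.16 to 2.47, and in the other 5 rows the values lie between -0.95 and 0.85.

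YAP1, the more abundant of the pair of coactivators, stood at 37.6 FPKM in the control. It was highest in siFOXA1, at 68.8 FPKM (0.85), and the gap to the next library, siEZH2 at 42.6 FPKM, was the widest in its order. It was lowest in siKDM1A at 19.0 FPKM (-0.95) and siBRCA1 at 23.3 FPKM (-0.67). In the remaining 8 knockdowns it lay between 33.6 FPKM in siBRCA2 and 41.7 FPKM in siRAD21, around the control. No YAP1 difference reached 2-fold on this scale, although the siKDM1A level was 0.506 times that of the control.

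The order of YAP1 levels was not the order of CYR61 levels. In siKDM1A and siBRCA1, the 2 libraries with the least YAP1, CYR61 was at 5.78 and 6.01 FPKM, above the control. In siEED, which had the most CYR61, YAP1 was at 35.4 FPKM (-0.085). In siFOXA1, which had the most YAP1, CYR61 ranked 3 of 13. Over the 13 libraries, Pearson's r between the levels was 0.25 and Spearman's rho 0.19, and r was 0.40 without siControl and siPCAT1, the pair of libraries farthest from the median CYR61 level. These points share 1 cell line and 1 scaling.

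WWTR1, which encodes TAZ, was close to the limit of the filter, with a mean of 0.516 FPKM. The control was again the lowest library, at 0.423 FPKM. The knockdowns below the widest gap numbered 8 and lay between 0.429 FPKM in the library labelled siMALAT1 and 0.488 FPKM in siEED. The other 4 stood apart from these at 0.633 FPKM in siEZH2, 0.639 in siCTCF, 0.661 in siSMARCA4 and 0.671 in siRAD21, with no library between 0.488 and 0.633. These 4 are also the libraries whose CYR61 level lay between 10.43 and 10.85 FPKM, whereas siFOXM1 and siFOXA1 had as much CYR61 or more with WWTR1 at 0.452 FPKM. On the log2(FPKM + 1) scale the 4 differences were only 0.20 to 0.23, and at such levels the noise of 1 library is unknown.

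WWTR1-AS1, listed as a separate entry on the opposite strand of the same locus, lay between 0.641 FPKM in siKDM1A and 1.09 in siEED. It was at 0.945 FPKM in siEZH2, 0.822 in siCTCF, 0.918 in siSMARCA4 and 0.795 in siRAD21, so the 4 libraries high in WWTR1 did not stand apart in it. Whether the counting used strand is not stated here, so reads from overlapping parts of the pair cannot be told apart. FPKM is per length, so the coactivators can be set side by side, and YAP1 exceeded WWTR1 by 40.1 times in siKDM1A to 152 times in siFOXA1, with 88.95 times in the control.

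**Figure D3:**
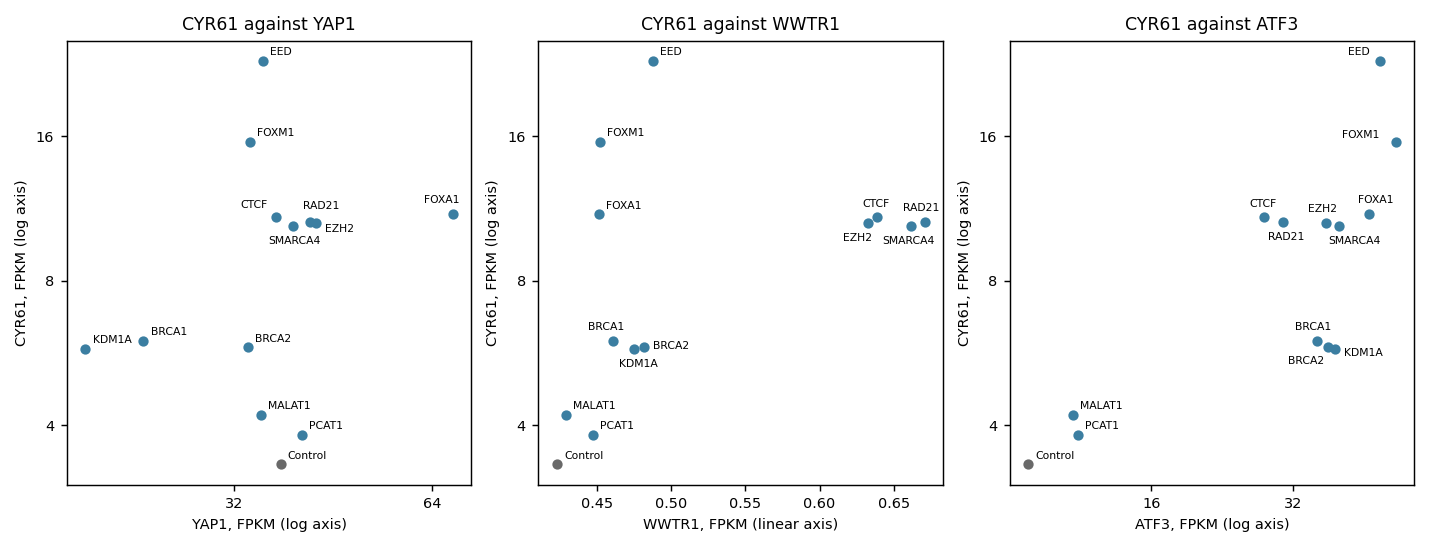
Each point is 1 library, with its CYR61 FPKM (log axis) against its FPKM of YAP1 (log axis), WWTR1 (linear axis) or the stress-responsive factor ATF3 (log axis), and the control in grey. CYR61 did not follow YAP1, 4 libraries stood apart in WWTR1 between 0.633 and 0.671 FPKM, and siControl, siPCAT1 and the library labelled siMALAT1 were lowest in both CYR61 and ATF3. Of the tested genes on the immediate early list described below, ATF3 had the highest r with CYR61.

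TEAD1, the DNA-binding partner, kept within a narrow range. It was at 3.61 FPKM in the control, between 4.04 and 4.98 FPKM in siEZH2, siEED, siBRCA2, siCTCF and siSMARCA4, and between 2.77 and 3.54 FPKM in the other 7. The extremes were siSMARCA4 (0.38) and the library labelled siMALAT1 (-0.29). Among the 4 TEAD genes, TEAD3 was the most abundant in the control at 8.85 FPKM and TEAD4 followed at 6.06 FPKM, and TEAD1 made up 17.6% of their summed FPKM. That share was lowest, 13.6%, in the library labelled siMALAT1 and highest, 27.5%, in siCTCF, where TEAD3 was at its lowest, 5.06 FPKM. VGLL4, which competes with YAP1 for TEAD factors, was at 29.7 FPKM in the control and at 59.7 FPKM in siKDM1A (0.98), the library with the least YAP1, and at 54.4 FPKM in siFOXA1 (0.85), the library with the most. Of 7 genes tested on the list of TEAD factors and their cofactors, 0 lay 2-fold from the control in any knockdown, whereas with a pseudocount of 0.1 in place of 1, 1 difference was 2-fold higher and 2 were lower.

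LATS2, a kinase that restrains YAP1 and TAZ and is itself one of their targets, was at 1.43 FPKM in the control. It was highest in siFOXM1 at 2.41 FPKM (0.49), siKDM1A at 2.39 (0.48) and siSMARCA4 at 2.38 (0.48). It was 2.19 FPKM in siFOXA1, 2.11 in the library labelled siMALAT1, 1.97 in siEZH2, 1.83 in siRAD21, 1.77 in siBRCA2 and 1.68 in siBRCA1. It stayed at the level of the control in siEED at 1.43 FPKM, siCTCF at 1.41 and siPCAT1 at 1.39. The library with the most CYR61, siEED, was thus at the control's level of LATS2, and siKDM1A, second highest in LATS2, had CYR61 at 5.78 FPKM, in the lower 6 libraries.

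AMOTL2, an angiomotin-family protein that binds and restrains YAP1, had a mean of 0.373 FPKM and did not pass the filter. It was at 0.376 FPKM in the control, highest in siCTCF and siFOXM1 at 0.559 FPKM each and in siFOXA1 at 0.546, and lowest in siBRCA1 at 0.149. In siEED it was at 0.383 FPKM. With YAP1 its levels had r = 0.57 and rho = 0.32 over the 13 libraries. Without the filter its differences ran from -0.26 to 0.18. CYR61 was thus highest in siEED, LATS2 in siFOXM1, and AMOTL2 in siFOXM1 and siCTCF together.

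A wider list of 22 commonly used YAP and TAZ target genes, with CYR61, LATS2 and AMOTL2 among them, was followed in the same way. Of 17 listed, 14 were tested, and 3 were 2-fold higher in at least 1 knockdown, 3 were 2-fold lower in at least 1, and 8 in none. Over the 12 libraries, 1.10% of all differences of the genes tested were 2-fold higher and 2.04% lower. Of the 168 differences of the list, 10 were 2-fold higher, 6 were 2-fold lower, and 7 of the higher ones were CYR61. With the median of the other 11 knockdowns as the reference 4 were 2-fold higher, and with a pseudocount of 0.1 the lower ones numbered 10. Without CYR61 the list had 3 of 156 differences higher (1.92%) and 6 lower (3.85%), and nothing is read from such small counts. GADD45A, a growth arrest and DNA damage gene, was at 8.65 FPKM in the control, 20.7 in siCTCF (1.17) and 19.6 in siFOXA1 (1.09). The third of the higher genes, NT5E, which encodes the surface nucleotidase CD73, was at 2.14 FPKM in the control and 5.37 in siCTCF (1.02), a difference that was 0.98 and no longer 2-fold once centred on the median of all genes. IGFBP3, an insulin-like growth factor binding protein, was at 54.5 FPKM in the control, and was lower in siRAD21 at 9.87 FPKM (-2.35), siFOXM1 at 13.2 (-1.97) and siPCAT1 at 18.5 (-1.51). CCDC80, a secreted matrix protein, was at 61.5 FPKM in the control, 18.8 in siRAD21 (-1.65) and 23.5 in siFOXA1 (-1.35). In siRAD21 CYR61 was thus higher while IGFBP3 and CCDC80 were lower. The median difference of the 14 genes ran from -0.078 in siFOXM1 to 0.31 in siEZH2, beside medians of all genes tested of 0.022 and 0.054 in the same libraries. In siEED it was 0.0047, beside 0.0058 for all genes.

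**Figure D4:**
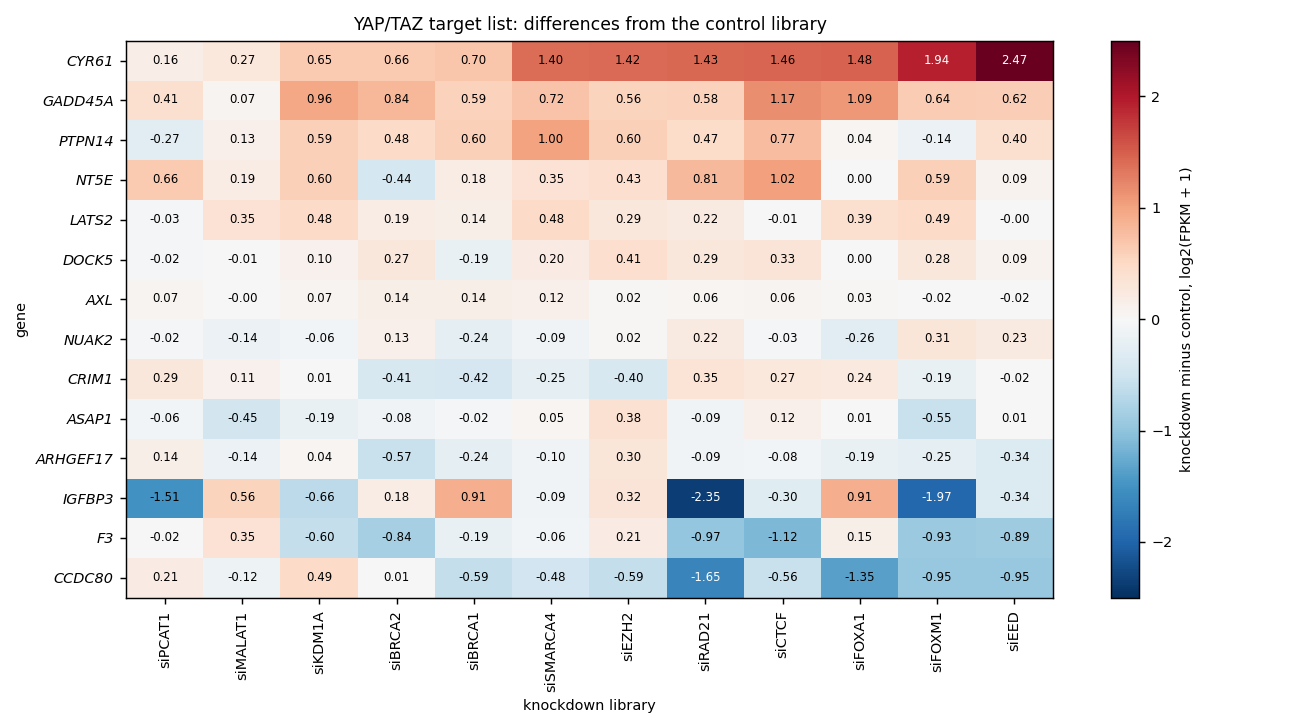
Each cell gives a knockdown minus the control on the log2(FPKM + 1) scale for the 14 tested genes of the target list (rows, by their mean difference) in the 12 knockdowns (columns, in the order of their CYR61 level). CYR61 and GADD45A are above the control throughout, CYR61 with 7 values of at least 1 and GADD45A with 2. IGFBP3 and CCDC80 reach -2.35 and -1.65 in siRAD21. PTPN14 in siSMARCA4 is printed rounded up and is just below 1.

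Of 21 genes tested on a list of the kinase core and its upstream regulators, 1 was 2-fold higher in 1 knockdown and 20 were past that size in none, and LATS2 is among these. That is 1 of 252 differences higher and 0 lower, where 1.10% of all differences were higher and 2.04% lower, so nothing is read from the small count. The exception was AMOTL1, a relative of AMOTL2, at 62.1 FPKM in the control and 158 in siRAD21 (1.33), with 46.4 to 103 FPKM in the other 11 knockdowns. The list median was between -0.092 in the library labelled siMALAT1 and 0.20 in siKDM1A, beside medians of all genes of 0.014 and 0.0076.

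CYR61 belongs to the CCN family of secreted proteins, of which 2 genes were tested. NOV, the other, was at 1.12 FPKM in the control and was highest in siFOXM1 at 4.42 FPKM (1.35). In siEED, where CYR61 was highest, NOV was at its lowest, 0.193 FPKM (-0.83).

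CYR61 is also known as an immediate early gene, induced within minutes by growth factors and stress, and it was set beside a list of 14 such genes, of which 9 were tested. Of their 108 differences from the control, 26 were 2-fold higher (24.1%, beside 1.10% of all differences) and 0 were 2-fold lower (beside 2.04%), with 7 of the 9 genes past that size in at least 1 knockdown and IER2 and KLF6 in none. With the median of the other 11 knockdowns as the reference, 4 were 2-fold higher and 2 lower. Against the control, ATF3 alone held 10 of the 26 higher differences and DUSP1 held 6. The list was chosen with earlier results of these data known, so nothing is read from its share. ATF3, a stress-responsive transcription factor, was at 8.76 FPKM in the control, 10.9 in the library labelled siMALAT1 and 11.2 in siPCAT1, and at 27.8 to 53.1 FPKM in the other 10. The 3 libraries low in ATF3 were the 3 lowest in CYR61. ATF3 did not separate the rest as CYR61 did, since siBRCA1, siBRCA2 and siKDM1A had 36.1, 38.1 and 39.4 FPKM of ATF3, above siCTCF at 27.8 and siRAD21 at 30.5. Pearson's r of levels with CYR61 over the 13 libraries was 0.79 for ATF3, the highest of the 9 genes. It was 0.71 for EGR1, 0.69 for DUSP1, 0.66 for JUN and 0.62 for FOS. For ZFP36 it was 0.49, for IER2 0.42, for JUNB 0.37 and for KLF6 0.04. FOS, a subunit of the AP-1 factor, was at 0.904 FPKM in the control, and its highest levels were 13.3 FPKM in siFOXM1 (2.91) and 9.38 in siFOXA1 (2.45). In siEED FOS was at 3.03 FPKM (1.08). EGR1, an early growth response factor, was at 0.130 FPKM in the control, 3.49 in siFOXM1 (1.99), 2.20 in siFOXA1 and 0.760 in siEED (0.64). DUSP1, a phosphatase of MAP kinases, was at 5.01 FPKM in the control, highest in siFOXM1 at 16.9 (1.57) and at 13.4 in siEED (1.26). ATF3, FOS, EGR1 and DUSP1, named for the largest differences on the list, were thus highest in siFOXM1, where CYR61 was second. ZFP36 was highest there too, at 10.6 FPKM, but JUN was highest in siEZH2 at 58.1 FPKM. JUNB and IER2 were highest in siFOXA1, at 36.5 and 37.1 FPKM, and KLF6 in siBRCA2 at 3.94 FPKM. The list median was lowest in siPCAT1 (0.090, all genes 0.019) and highest in siFOXM1 (1.08, all genes 0.022), with 0.64 in siEED (all genes 0.0058).

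Likeness of pattern was measured by Pearson's r of levels over the 13 libraries, on the log2(FPKM + 1) scale, among 3869 genes with a usable symbol, a mean of at least 1 FPKM and a range of at least 1 log2 unit. Closest to CYR61 were SLC35F3 (r = 0.92), a solute carrier family member, PPP1R15A (0.84), a stress-induced phosphatase subunit, and ZBTB43 (0.83). SLC35F3 was also highest in siEED, at 8.59 FPKM against 4.15 in the control. PPP1R15A was lowest in the control at 2.07 FPKM and highest in siFOXM1 at 9.63. All 3 stayed among the 20 closest by Spearman's rho and without siFOXA1 and siFOXM1. Closest to YAP1 were GSTT1 (0.90), PPCS (0.89) and ACTG2 (0.88), all highest in siFOXA1, and 1 of the 3 stayed among the 20 closest by rho. Closest to LATS2 were DOCK4 (0.87), SLC36A1 (0.82) and GDPD5 (0.80), to TEAD1 SFT2D2 (0.74), the pseudogene ANKRD36BP1 (0.72) and EIF4EBP1 (0.71), and to WWTR1 CYP39A1 (0.83), EIF4EBP3 (0.81) and LPP (0.79). By rho, 3 of the 3 stayed among the 20 closest for LATS2, 1 of 3 for TEAD1 and 2 of 3 for WWTR1, where LPP moved to place 112. Among the 3 closest by rho, 2 of the 3 stayed for CYR61, 1 for LATS2 and 0 for YAP1, TEAD1 and WWTR1. Picked as the highest of 3869 over 13 libraries, such r are high by selection, and nothing is read from them. Between members, r ran from -0.26 for LATS2 with TEAD1 to 0.57 for AMOTL2 with YAP1, and that of TEAD1 with WWTR1 was 0.56, or 0.26 without siCTCF and siSMARCA4. Of the pairs with CYR61, that with WWTR1 had the highest r, 0.43. It was 0.62 without siFOXA1 and siFOXM1 and 0.26 without siControl and siPCAT1.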

How the data were processed

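RNA sequencing libraries of LNCaP-abl cells, 1 per group, were compared. The submitters' processing notes name TopHat, Cufflinks and the build hg19, without versions. The authors deposited log2 values of FPKM for 22613 entries in each of 13 libraries. The floor of the values was the log2 of 0.1, so they were read as log2(FPKM + 0.1), an offset no label states. Sorted values differed between libraries by at most 0.0562, so they had been brought to a common distribution before deposit, a step the sources used here do not record.

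The values were turned back to FPKM, set to 0 below 1e-09, and compared as log2(FPKM + 1) with Python 3.11.15, numpy 2.4.6 and pandas 2.3.3. Genes with a mean of at least 0.5 FPKM were kept, and 749 small RNA entries were left out, which left 15786. The code was tested on simulated data. Read depth is unknown, no counts were used, and no intervals are given.

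The members and lists were chosen with earlier results of these data known. Genes named are the members, up to 4 genes per list with the largest difference of at least 1, and the 3 genes most like each member. The siRNA targets MALAT1, BRCA1, BRCA2, EED and EZH2 and the antisense entry WWTR1-AS1 are named too. TEAD3, TEAD4, VGLL4, F3, NT5E, PTPN14, JUN, JUNB, ZFP36, IER2, KLF6 and the cell type markers were named after their values were seen. The lists were YAP/TAZ targets, Hippo core and upstream genes, TEAD factors and cofactors, the CCN family, SRF and actin genes, and immediate early genes. List genes with no value here were not analysed. Alternatives were a pseudocount of 0.1, no filter, quantile normalization, centring, the median of the other 11 knockdowns as the reference, leaving out libraries, and Spearman's rho. Promoter windows are from RefSeq on GRCh38.p14, a build other than that of the files, and were joined by symbol only.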

Additional observations from a re-analysis of the deposited data

How the results depend on the processing

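The count of 7 member differences at least 2-fold higher and 0 lower was the same with a pseudocount of 0.1, no filter and centring on the median of all genes. None of these settings could have removed a call. A smaller pseudocount only enlarges differences, and no filter only adds AMOTL2. Centring moved values by at most 0.054, where the smallest call was 1.40. Quantile normalization gave the same count too, but the deposited values already share a distribution, so that setting could move little. With the median of the other 11 knockdowns as the reference it was 1 higher and 2 lower, and CYR61 in siSMARCA4 turned to -0.015. Leaving out each knockdown library in turn gave 6 to 7 higher and 0 to 0 lower, which only removes that library's own call and checks nothing else. The single control, on which all calls rest, could not be left out. Without the library labelled siMALAT1, an alternative chosen after the data were seen, it was 7, since that library held no call. List totals over the 12 knockdowns moved by more than 1.5 times in these cases. With a pseudocount of 0.1, lower differences went from 6 to 10 for YAP/TAZ targets, 0 to 1 for the Hippo core and upstream, 0 to 2 for TEAD factors, 0 to 4 for the CCN family and 2 to 4 for SRF and actin genes. Higher ones went from 1 to 2 for the Hippo core and 0 to 1 for TEAD factors. With the other knockdowns as the reference, higher differences went from 10 to 4 for YAP/TAZ targets, 8 to 2 for the CCN family and 26 to 4 for immediate early genes, and lower ones from 2 to 0 for SRF and actin genes, and from 0 to 2 for the CCN family and for immediate early genes. The cause was not tested. Of the correlations between members under 3 alternatives, 14 moved by more than 0.2. No paired analysis was possible because each group had 1 library. Replicate error and depth are unknown, so differences at FPKM below 1, those of WWTR1 and AMOTL2, have no measured precision.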

Other observations

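CYR61 is also known to respond to serum response factor (SRF) and its actin-sensing cofactors, and 12 genes of that group were tested. None was 2-fold higher than the control in any knockdown, and 2 were 2-fold lower in 1 knockdown each. Of their 144 differences that is 0 higher and 1.39% lower, beside 1.10% and 2.04% of all differences, so the counts are near the background. FLNA, which encodes the actin crosslinker filamin A, was at 25.8 FPKM in the control, 10.8 in siBRCA1 (-1.18) and 16.2 in siEED, the library with the most CYR61. Its level was below the control in 11 of the 12 knockdowns, siFOXA1 at 30.2 FPKM being the exception. CNN2, a calponin, was at 4.70 FPKM in the control and 1.67 in siEZH2 (-1.09). The median difference of the 12 genes was highest in siFOXA1 (0.46, all genes 0.018) and was -0.11 in siEED (all genes 0.0058).

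F3, the gene of tissue factor and a member of the YAP and TAZ target list, was lower in siCTCF at 2.29 FPKM against 6.13 in the control (-1.12). It was at 2.64 FPKM in siRAD21, 2.74 in siFOXM1 and 2.86 in siEED, libraries in which CYR61 was 2-fold higher, and at 7.25 in siEZH2 and 6.93 in siFOXA1, where CYR61 was 2-fold higher as well. In siBRCA2 and siKDM1A, where CYR61 was not 2-fold higher, F3 was at 2.985 FPKM (-0.84) and 3.71 FPKM (-0.60), so low F3 did not go with high CYR61 alone. F3 was chosen after its values were seen.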
